A study of Mus musculus with 2 samples.

Results

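The genes described here are the EGR family of transcription factors (Egr1, Egr2, Egr3 and Egr4) and the genes of their corepressors (Nab1 and Nab2). EGR1 peaks were taken as theirs when the peak centre lay in the gene body or within 10 kb of a transcription start site (TSS) of the gene in GENCODE release M21. By this rule, 17 of the 12014 EGR1 peaks of the series were at these 6 genes. The peaks come from EGR1 ChIP-seq (sequencing of the DNA bound to immunoprecipitated EGR1) of frontal cortices from male 129SvEv/C57BL/6N F1 hybrid mice (129SvEv mothers, a C57BL/6N father) at 6 weeks of age. No knockout, treatment or stimulation is named for these mice, and each of the 2 ChIP experiments pooled the cortices of 4 to 5 of them. The deposited list merges both experiments and gives the position and the irreproducible discovery rate (IDR) of each peak, which is smaller the more alike and the stronger a peak was in the replicates. It holds no read counts, and no file of the input DNA was analysed here. The depth behind each peak is therefore unknown, no error between replicates can be given, and all that follows describes 1 list without a test. Since the cortex holds neurons and glia together, the list does not say in which cells a site was bound.

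EGR proteins are zinc finger factors whose genes are switched on within minutes by growth signals and, in neurons, by synaptic activity. Their zinc finger domains are much alike, so the family shares a GC-rich DNA site, and EGR1 is known in the cortex for its part in plasticity and memory. NAB1 and NAB2 do not bind DNA themselves. They bind to EGR1, EGR2 and EGR3 and mostly repress their target genes, and Nab2 is itself a known EGR target, which makes a feedback loop. Whether the antibody also bound other EGR proteins was not tested here.

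Sequences of the peaks that carry the results are shown first, read from the GRCm38 (mm10) assembly 5′ to 3′ on the strand of the gene. The assembly is that of C57BL/6J, so 129SvEv alleles of the hybrid mice may differ from it. Both peaks upstream of Egr3 are given in full because each holds 1 copy of GCGTGGGCG, the classical EGR site, in capitals and in the reverse orientation.
Egr3 peak 1, chr14:70075046-70075282: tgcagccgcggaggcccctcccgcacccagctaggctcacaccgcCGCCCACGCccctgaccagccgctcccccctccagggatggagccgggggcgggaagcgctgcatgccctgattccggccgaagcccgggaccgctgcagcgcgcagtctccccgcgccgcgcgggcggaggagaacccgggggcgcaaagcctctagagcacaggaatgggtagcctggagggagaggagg
Egr3 peak 2, chr14:70075512-70075761: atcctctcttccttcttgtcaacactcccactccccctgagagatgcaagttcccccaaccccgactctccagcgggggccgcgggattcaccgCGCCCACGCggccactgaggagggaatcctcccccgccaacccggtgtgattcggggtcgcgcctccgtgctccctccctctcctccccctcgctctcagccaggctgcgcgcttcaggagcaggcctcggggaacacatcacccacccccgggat

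The only peak at Egr2 is shown as a case with no exact site. Its capitals mark stretches that differ from GCGTGGGCG or GCGGGGGCG at 1 base, of which the first, 11 bases long, is made of 2 overlapping sites.
Egr2 peak 1, chr10:67536863-67537126: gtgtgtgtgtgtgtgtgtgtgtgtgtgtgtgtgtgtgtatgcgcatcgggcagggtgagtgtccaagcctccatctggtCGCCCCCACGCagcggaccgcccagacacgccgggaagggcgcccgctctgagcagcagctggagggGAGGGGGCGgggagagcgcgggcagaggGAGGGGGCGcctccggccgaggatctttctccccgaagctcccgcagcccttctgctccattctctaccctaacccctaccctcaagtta

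At Nab2, the only peak of 8 with an exact site (capitals) and a short peak whose nearest site differs at 1 base (capitals) are shown, both on the minus strand.
Nab2 peak 7, chr10:127668813-127668987: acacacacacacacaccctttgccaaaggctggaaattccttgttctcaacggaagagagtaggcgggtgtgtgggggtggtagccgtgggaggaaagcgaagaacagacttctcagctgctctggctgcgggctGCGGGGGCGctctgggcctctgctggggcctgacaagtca
Nab2 peak 4, chr10:127666998-127667112: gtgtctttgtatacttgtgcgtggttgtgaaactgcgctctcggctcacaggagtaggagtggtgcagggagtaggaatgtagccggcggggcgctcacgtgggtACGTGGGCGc

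The sites in the peaks of Egr4 and Nab1 are given with up to 10 bases to each side, since these peaks overlap UTRs. Nab1 has 3 of them within 1 peak.
Egr4 site, chr6:85513317-85513345, minus strand: ccgaaggctgCGCCCACGCcagccccgag
Nab1 site a, chr1:52500571-52500599, minus strand: gccccgcggcCGCCCACGCcgggatctgc
Nab1 site b, chr1:52500539-52500567, minus strand: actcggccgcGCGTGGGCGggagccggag
Nab1 site c, chr1:52500474-52500496, minus strand: gcggggcgggGCGGGGGCGgcgg

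All 6 genes had at least 1 EGR1 peak (6 of 6, 95% Wilson interval 61.0 to 100%), whereas 39.6% of the 21938 protein-coding genes on assembled chromosomes did by the same rule. The EGR genes held 8 of the peaks, with 3 at Egr1, 1 at Egr2, 3 at Egr3 and 1 at Egr4. The NAB genes held 9, with 1 at Nab1 and 8 at Nab2. At least 3 peaks were found at 3 of the 6 genes, compared to 4.82% of coding genes. Nab2 was 1 of only 23 coding genes (0.105%) with 8 or more peaks. The median of the 6 genes was 2 peaks and that of all coding genes was 0. Wilson intervals here and below treat genes or peaks as independent and cover counting error only.

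**Figure D1:**
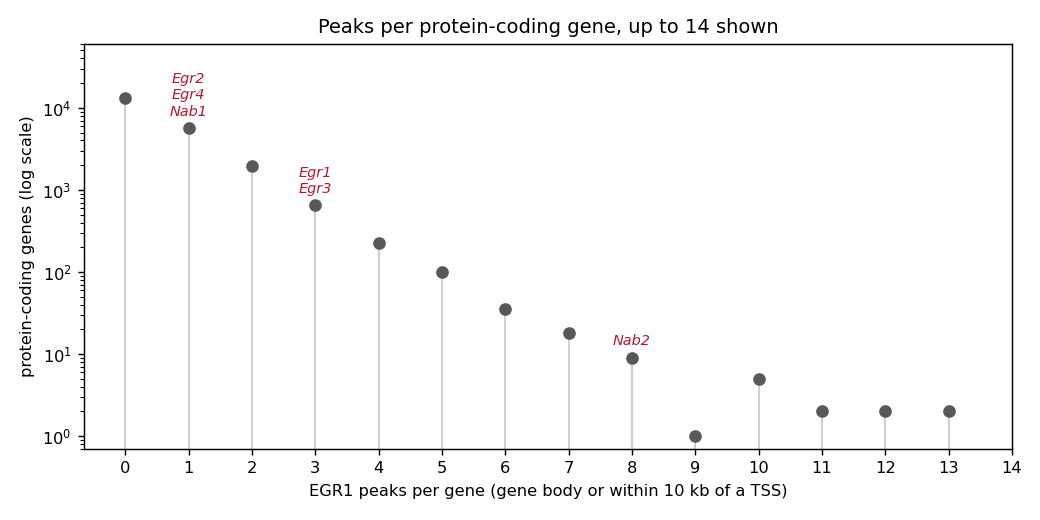
Number of protein-coding genes (y axis, log scale) by the number of EGR1 peaks in the gene body or within 10 kb of a TSS (x axis), with the 6 genes named above the point of their class. Nab2, with 8 peaks, stands among 23 genes with 8 or more, while Egr2, Egr4 and Nab1 are in the class of 5678 genes with 1 peak, and 2 genes with over 14 peaks are not drawn.

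A peak centre within 500 bp of a TSS of the gene was found for 5 of the 6 genes, compared to 25.8% of coding genes. The exception was Egr2, whose peak was 875 bp from the nearest TSS. The count rests on peaks of high IDR at Egr1 (0.00603), Egr3 (0.00225) and Egr4 (0.00483), and with an IDR of at most 0.001 it was 2 of 6, Nab1 and Nab2. Of the 17 peaks, 9 lay within 500 bp and 13 within 1 kb of a TSS of their own gene. Only Nab2 had at least 2 such peaks within 500 bp, with 5, a feature of 3.14% of coding genes. These 5 are counted over the 4 TSSs that GENCODE gives for Nab2. From the Nab2 start in the RefSeq annotation, only peaks 3 and 4 lay within 500 bp, at 14 and 352 bp. For 13 of the 17 peaks, the nearest TSS of any gene was one of the gene itself, and the 4 others were all at Nab2.

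The IDR of the 17 peaks ran from 2.13e-08 to 0.00603, with a median of 1.25e-06, while the median of all peaks was 0.000321 and the highest 0.02. Among the 12014 peaks ranked from the lowest IDR, the 17 peaks held ranks 135 to 9739, with a median rank of 2681. Peaks of the 4 EGR genes had a median rank of 4990 and those of the 2 NAB genes 2276, and the groups overlapped, with ranks 135 to 9739 and 402 to 6434. Ranks in the first 10% of the list were held by 4 of the 17 peaks, against 10% of all peaks by definition. These belonged to Egr1, Egr3 and Nab2, and thus to 3 of the 6 genes, whereas 6.79% of coding genes had such a peak.

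**Figure D2:**
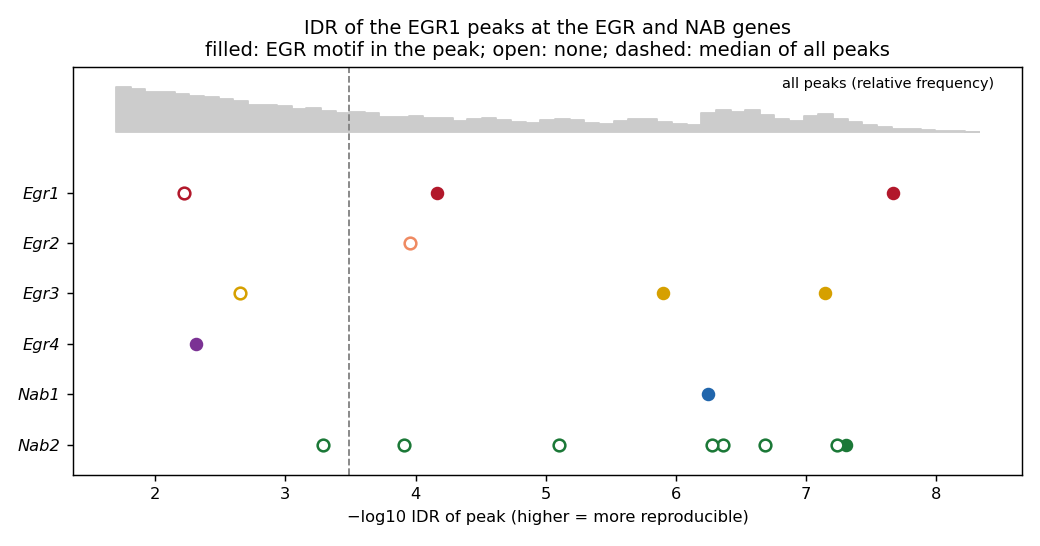
Reproducibility of the 17 peaks as −log10 IDR (x axis), 1 row per gene, below the relative frequency of all peaks on assembled chromosomes in grey. Filled points hold an exact EGR site and open points hold none, and the dashed line marks the median of all those peaks. Egr1 and Egr3 each have peaks on both sides of the line, the single peak of Egr4 is to its left at an IDR of 0.00483, and 7 of the 8 Nab2 peaks are to its right.

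Egr1 encodes the factor that was immunoprecipitated. The gene lies on chromosome 18 from 34859823 to 34864984, on the plus strand, and GENCODE gives it 2 TSSs, at 34859823 and at 34861207. Its best peak, from 34861624 to 34861826, had an IDR of 2.13e-08 (rank 135 of 12014) and lay in a coding exon, 518 bp downstream of the second TSS. A further peak, from 34860500 to 34860655, was 630 bp upstream of this TSS and had an IDR of 6.85e-05. Both peaks held 1 copy of GCGGGGGCG. The peak between them, from 34860892 to 34861141 and 191 bp upstream of the second TSS, held no exact EGR site and had the highest IDR of all 17 peaks, 0.00603 (rank 9739). In the longer transcript, the centres of these upstream peaks lie in the 5′UTR. The 3 peak centres were 439 and 709 bp apart.

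The Egr1 peak with the highest IDR had 1 site that differs from an exact EGR site at 1 base. Such a site or an exact one is in 69.8% of all peaks on assembled chromosomes. This peak also had another kind of site. It held 2 CArG boxes, the sites of serum response factor (SRF), through which growth and activity signals switch on Egr1. A CArG box (CC, 6 bases of A or T, GG) was present in 1 of the 17 peaks and in 0.938% of all peaks on assembled chromosomes. Among those 11938 peaks, 1 had 2 or more boxes (0.00838%), and this is the Egr1 peak. Within 1 kb of its TSSs, Egr1 has 5 CArG boxes. Those in the peak are 100 and 78 bp upstream of the second TSS, and the other 3, from 402 to 348 bp upstream, lie in the gap between the first 2 peaks. Egr2 has 2 boxes within 1 kb of a TSS and Egr3 has 1, none of them in a peak, and Egr4, Nab1 and Nab2 have 0. TGACGTCA, the cAMP response element bound by CREB, was in 0 of the 17 peaks (Wilson upper limit 18.4%) and in 1.3% of all peaks. The short ETS core GGAA, which ELK proteins bind next to SRF, is too common to tell peaks apart, with 16 of 17 and 90.2% of all peaks. This Egr1 peak had 6 copies, as did Nab2 peaks 2 and 5, which hold no CArG box. Whether SRF or ELK proteins bind at these peaks was not tested.

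**Figure D3:**
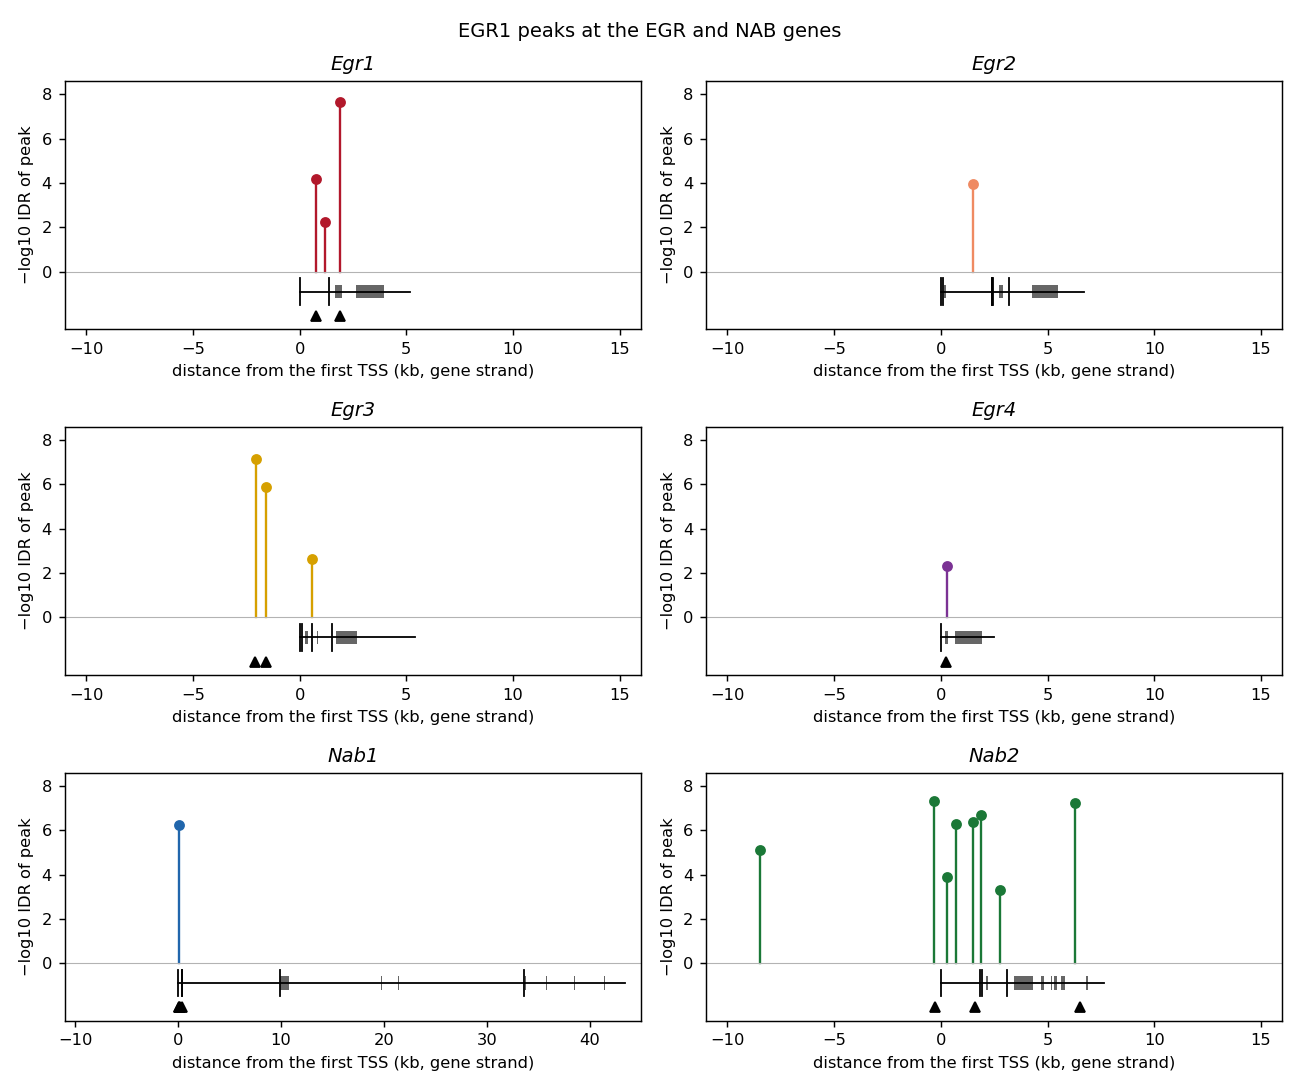
EGR1 peaks as stems at each of the 6 genes, with height −log10 IDR (y axis), by distance from the first TSS on the gene strand in kb (x axis, longer for Nab1). Below each plot are the gene (line), its TSSs (ticks), coding sequence (grey boxes) and exact EGR sites (triangles). Peaks crowd around the start of Egr1 and Nab2, the best Egr3 peaks stand about 2 kb upstream, and 9 of the 12 exact sites are under a peak.

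Egr2, which directs hindbrain patterning and myelination and is also induced by activity in neurons, is on chromosome 10 from 67535475 to 67542188 on the plus strand. Its peak had an IDR of 0.000109 (rank 5152) and no other peak lay within 23.0 kb of its TSSs. The centre was in an intron of both transcripts that start at the first TSSs of the gene, and 875 bp upstream of the TSS at 67537869. Of its 7 transcripts, 4 start within 100 bp of that TSS. As printed above, it held no exact site but 4 that differ at 1 base (positions from 1 at the 5′ end of the site). Of these, 2 had the substitution C2A, 1 had C2T and 1 had C8G. None of the 5 promoter windows of 300 bases that RefSeq gives for Egr2 (250 bases before to 50 after a start) overlapped a peak.

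At Egr3, an activity-induced factor needed for muscle spindles and for memory, the peaks fell into a pair upstream and a single one inside the gene. Egr3 is on chromosome 14 from 70077203 to 70082614, on the plus strand. Peak 1, 2039 bp upstream of the first TSS, had an IDR of 7.13e-08 (rank 654). Peak 2 was 1567 bp upstream, with an IDR of 1.25e-06. These neighbours, with centres 472 bp apart, were the only peaks of the EGR genes outside a gene body. Peak 3, from 70077662 to 70077925, lay 2 bp from an internal TSS of a noncoding transcript, in an intron of the coding ones. It had an IDR of 0.00225, no exact site and no site with 1 mismatch. The better ranks at Egr3 were thus those of the upstream peaks. Apart from its exact site, peak 1 had 3 sites with 1 mismatch (G1C, T4C and G1C) and peak 2 had 2 (G9C and C8A).

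Egr4, a further activity-induced member of the family, is on chromosome 6 from 85511121 to 85513589, on the minus strand. Its only peak, from 85513158 to 85513421, had an IDR of 0.00483 (rank 9365), the highest value for the best peak of a gene among the 6. The centre lay in a coding exon, 300 bp downstream of the TSS. It held 1 copy of GCGTGGGCG, 42 bp from its centre, and 1 site with the substitution G5T. With a limit of IDR 0.001, Egr4 would be the only one of the 6 genes without a peak. The next peak was 10.6 kb downstream of the TSS and thus just outside the rule, 53 bp from a TSS of the neighbouring Fbxo41.

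Nab1 is the longest of the 6 genes, with 43386 bp on chromosome 1 from 52457294 to 52500679 on the minus strand, and yet had a single peak, at its start. This peak, from 52500474 to 52500599, was 126 bp wide with an IDR of 5.68e-07 (rank 2367). In the transcript that starts at the first TSS, the peak centre lay in the 5′UTR, 143 bp downstream. From the Nab1 start in RefSeq, the peak was centred 88 bp upstream. With 2 copies of GCGTGGGCG and 1 of GCGGGGGCG, it was 1 of 15 peaks with 3 or more exact sites among the 11938 (0.126%). 1 more copy of GCGGGGGCG lies 183 bp beyond the edge of the peak. The 300-base RefSeq promoter of Nab1 contained all 3 sites of the peak, whereas 3.47% of 32851 such promoter windows hold any exact site. It was the only 1 of the 8 RefSeq windows of these genes with an exact site. The windows of Egr2, Egr4 and Nab2 held none, and Egr1 and Egr3 were not matched. The GC content of the peak, 79.4%, and its observed/expected CpG ratio, 1.20, were the highest of the 17 peaks. The nearest other peak was 77.7 kb from the closest Nab1 TSS.

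Nab2 held nearly as many peaks as the other 5 genes together. It is on chromosome 10 from 127660918 to 127668568, on the minus strand, with TSSs at 127665481, 127666632, 127666710 and 127668568. From the 3′ end, peak 1 (127662217 to 127662367) was in an intron and had an IDR of 5.74e-08 (rank 496). Peak 2 (127665657 to 127665910), also intronic, had the highest IDR of the gene, 0.00051. Peak 3 (127666567 to 127666812) covered the TSSs near 127666710 and had an IDR of 2.06e-07 (rank 1355). These first 3 peaks were within the main Nab2 transcripts.

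The next 4 Nab2 peaks lay between the main TSSs and the upstream one at 127668568, or just beyond it. Peak 4, with 115 bp the narrowest of all 17, had an IDR of 4.31e-07. Peak 5 (127667729 to 127667978) had an IDR of 5.26e-07, and peak 6 (127668137 to 127668400) one of 0.000123. Peak 7 had the lowest IDR of the gene, 4.88e-08 (rank 402), and was 332 bp upstream of the upstream TSS. Peaks 2 to 7 filled a span of 3331 bp, with centres 366 to 906 bp apart. Another peak within 2 kb was found for 11 of the 17 peaks and for 19% of all peaks on assembled chromosomes. The 11 were the 3 peaks of Egr1, peaks 1 and 2 of Egr3, and peaks 2 to 7 of Nab2. Neighbouring peaks count each other, so these are clusters at Egr1, Egr3 and Nab2 and not independent cases. At least 3 others within 2 kb were found for 5 peaks, all in the 1 cluster at Nab2, against 0.369% of all peaks, which number 44.

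This crowded region is shared with other genes. Nemp1, which encodes a protein of the inner nuclear membrane, is transcribed on the opposite strand from 127666901, and all 8 Nab2 peaks were also assigned to it by the rule. Stat6, a factor of interleukin signalling whose 3′ end meets that of Nab2, shared 7. Peaks 4, 5 and 8 were nearest to a Nemp1 TSS, and peak 1 to that of Gm16229, an antisense RNA. Peak 8 (127676901 to 127677150, IDR 7.88e-06) lay 39 bp from a Nemp1 TSS and 8457 bp from the closest Nab2 TSS, so it owes its place here to the 10-kb rule. Counting only peaks nearest to their own gene left 4 at Nab2, the most of the 6 genes by the TSSs of GENCODE. Peaks 6 and 7 are among them only through the TSS at 127668568, which lies 1.865 kb from the Nab2 start in RefSeq. Which of these genes a peak acts on was not tested.

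At Nab2, 1 of the 8 peaks held an exact site, and 16.6% of all peaks on assembled chromosomes do. Each of the 7 others except peak 2 had 1 to 3 sites that differ at 1 base (69.8% of all peaks have such a site or an exact one), such as C8T and C2T in peak 1, C8A and G9A in peak 3, and G1A in peak 4. Some exact sites lay near a deposited interval but outside it, and how often this holds over all peaks was not counted. A copy of GCGTGGGCG at 127666966 to 127666974 was 23 bp from the edge of peak 4, and one of GCGGGGGCG was 159 bp from peak 1.

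Over all 6 genes, 7 of the 17 peaks held GCGTGGGCG or GCGGGGGCG on either strand, or 41.2% (95% Wilson interval 21.6 to 64.0%), compared to 16.6% of the 11938 peaks on assembled chromosomes. GCGTGGGCG was in 4 of the 17 (4.41% of all peaks) and GCGGGGGCG also in 4 (12.5% of all peaks), with the Nab1 peak counted in both. Thus the form with T was as frequent as the form with G here and the rarer one in the list as a whole. The share of peaks with a site falls as IDR grows, from 34.5% of all peaks with an IDR under 1e-06 to 10.3% of those from 0.0001 to 0.01. The class between these, from 1e-06 to 0.0001, had 17.8%. In order of rising IDR, 4 of 8, 2 of 3 and 1 of 6 peaks of the EGR and NAB genes held a site. Allowing 1 mismatch gave 15 of 17, but 69.8% of all peaks also have such a site. The 2 peaks without any were Egr3 peak 3 and Nab2 peak 2.

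The 9 exact sites in these peaks were 17 to 69 bp from the peak centre, 8 of them within 60 bp. On the strand of the gene were 4 of them, and 5 on the opposite strand. In the windows of the rule, the 6 genes have 12 exact sites in all, of which 9 (75%) were in a peak. The 9 lie in 7 peaks, so they are not independent. Of the 5969 sites in the windows of all coding genes, 33.3% were in a peak. Those windows include genes without a peak, whereas each of the 6 genes has one, so the shares are not like for like. At Egr1, Egr3 and Egr4 every exact site was in a peak, at Nab1 3 of 4 and at Nab2 1 of 3 were, and Egr2 has no exact site in its window.

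The GC content of the 17 peaks was 57.5 to 79.4%, with a median of 67.0%, and 60.4% was the median of all peaks on assembled chromosomes. Their observed/expected CpG ratio (CpGs found over those that the C and G content would give) was 0.34 to 1.20, with a median of 0.66 against 0.60 for all peaks. The upper quartile was lower than that of all peaks, 0.745 against 0.825. The lowest ratios were at Nab2, in peak 2 (0.34), peak 7 (0.46) and peak 1 (0.51), whereas peak 4, in an exon of a Nemp1 transcript, had 1.00. The peaks of Egr3 differed little from each other, from 0.73 to 0.75. Widths ran from 115 to 264 bp with a median of 250 bp, also the median of all peaks.

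**Figure D4:**
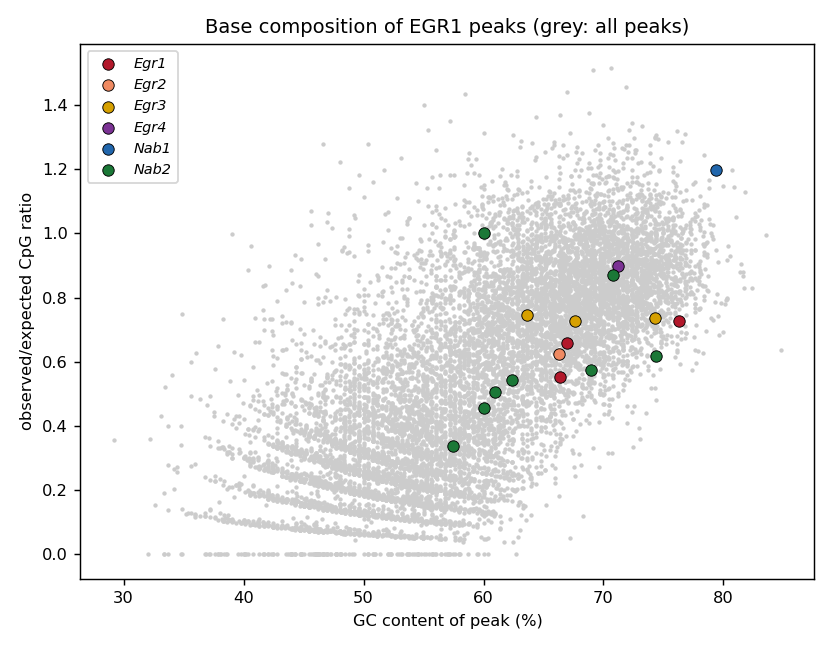
Observed/expected CpG ratio (y axis) against GC content in percent (x axis) for all EGR1 peaks on assembled chromosomes (grey) and the 17 peaks of the 6 genes (coloured by gene). All 17 have a GC content of 57.5% or more, the Nab1 peak is at the top right with a ratio of 1.20, and the Nab2 peaks spread from 0.34 to 1.00.

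Genes of related function were counted by the same rule and set against the same 39.6% of coding genes. Of the FOS and JUN genes, immediate-early partners of the EGR genes, 6 of 7 had a peak, 13 peaks in all, of which 7 held an exact EGR site. Such a site was in 16.6% of all peaks on assembled chromosomes. Junb had 5 peaks, the best at an IDR of 5.33e-09 (rank 10), and Fos had 0. Of the other activity-induced factors, 4 of 6 had a peak, with 4 each at Npas4 and Nr4a1 and 0 at Nr4a2 and Crem. By the rule, neither list had a gene with as many peaks as Nab2, but all 8 Nab2 peaks are shared with Nemp1. Only 4 of them were nearest to a Nab2 TSS, a count not made for the genes of these lists. All 11 genes of kinases and factors that switch on EGR genes had 1 to 4 peaks, among them Srf with 3 (best IDR 2.42e-07) and Map2k2 with 4. For NuRD, the chromatin remodelling complex that NAB proteins recruit, 10 of 11 genes had a peak. Chd4, the helicase subunit that binds NAB2, and Mbd3 had 4 each, and Hdac1 had 0. Of 4 other factors of GC-rich sites, Sp1 and Sp4 had 2 peaks each and Wt1 and Sp3 had 0.

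Genes with a like number of peaks were sought by counting peak centres within 10 kb of a TSS. Psd, which encodes an ARF6 exchange factor of synapses, and Dlgap3, a postsynaptic scaffold gene, had 10 each. Nav2 had 9, and Shank1, another postsynaptic scaffold gene, had 8. Nemp1 followed with 8, the same peaks as Nab2. More TSSs give a gene a wider window by this count, and their number was 13 for Psd and 17 for Nav2, against 4 each for Dlgap3 and Nab2.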

How the data were processed

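The authors trimmed 100-bp paired-end reads, mapped them to mm10 with Bowtie (Bowtie2 2.2.9 and bedtools 2.26.0 are named in the submitters' processing notes), called peaks in each replicate with SPP and merged the peaks that passed an IDR of 2%. The deposited values are the bounds of each peak and its IDR, a measure read like a q-value. How positions are counted is not given in the sources used here, so the BED convention was assumed, and positions are printed counted from 1.

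Peak centres were assigned to genes of GENCODE release M21 with the rule given in the report, and sequences were read from GRCm38.p6. Peaks on scaffolds (76) were left out of sequence counts. Promoter windows came from RefSeq (GRCm38.p6), whose table held 4 of the 6 genes; Egr1 and Egr3 were not matched. A CArG box was counted once per position. Protein sequences were not analysed here.

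The genes and lists, and the rule for naming genes (all 6 members, the genes of each list with the most peaks and with none, and the 5 coding genes with the most peaks within 10 kb of a TSS, and the gene with the TSS nearest to each peak), were chosen with earlier results of these data known. Srf, Stat6 and the genes at the next peaks outside the windows were named after their values were seen. Alternatives for distance, IDR, overlap, TSSs and motif were tried. Python 3.11.15, pandas 2.3.3, pysam 0.24.0 and samtools 1.23.1 were used, and peak assignment and motif search were tested on simulated data, recovering 300 of 300 and 400 of 400 known answers.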

Additional observations from a re-analysis of the deposited data

How the results depend on the processing

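Of the alternatives tried, 21 kept their value within 1.5 times that reported or left it the same, and 5 moved it. The best IDR of Egr2 from peaks within 500 bp of a TSS, which has no value, is in neither count. All 6 genes kept a peak under each alternative for distance, overlap, TSS and an IDR of 0.01, and 5 did at an IDR of 0.001, where Egr4 lost its only peak. With 50 kb in place of 10 kb, the number of peaks at the 6 genes moved from 17 to 27. With an IDR of at most 0.001, 14 peaks were left and the number of genes with a peak at a TSS moved from 5 to 2. Allowing 1 mismatch moved the number of peaks with an EGR site from 7 to 15. Counting only peaks within 500 bp of a TSS moved the best IDR of Egr1 from 2.13e-08 to 0.00603 and that of Egr3 from 7.13e-08 to 0.00225, and left no peak for Egr2. Counting only peaks nearest to their own gene, an alternative chosen after seeing the data, left 13. Leaving out a replicate could not be tried, since the list merges both. No paired analysis was possible because there is 1 merged list. Without read counts, a gene with 0 peaks is one where none passed the authors' threshold, at a depth that is unknown.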

Other observations

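The first EGR1 peaks beyond the windows of the rule lay at these distances from the TSSs of each gene, with no comparison to other genes made. Egr1 lay between a peak 19.2 kb upstream, at the TSS of Reep2, and one 23.4 kb downstream with an IDR of 5.37e-06, whose nearest TSS of any gene is that of Egr1. Egr2 had its next peaks 23.0 kb upstream and 374 kb downstream, the latter at Zfp365. Those of Egr4 were 74.4 kb upstream, nearest to Alms1, and 10.6 kb downstream, at Fbxo41. Egr3 had its next peaks 81.6 kb upstream and 21.3 kb downstream, the latter at a TSS of Bin3. The next peaks of Nab1 were 77.7 and 78.7 kb away, and those of Nab2 53.6 and 43.7 kb, although Nab2 holds 8 within the window. No target of these distant peaks was tested.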
